A study of Rattus norvegicus with 4 samples.

Results

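The autophagy genes of neonatal rat cardiomyocytes were examined after transfection of a miRNA mimic. Cells that received miR-106b, miR-93 and miR-25 were each set against cells that received the control mimic cel-miR-67. Genes were chosen by name: 18 have a symbol made of Atg and a number, and 21 of 22 further names of the core machinery were found, which gave 39 of the 15731 genes listed. The remaining name, Nbr1, was not analysed here. All 4 libraries came from wild type Wistar rats, from ventricular cardiomyocytes labelled as postnatal day 1, and differed by the mimic: the nematode miRNA cel-miR-67 as control, or a cluster member under its human name (hsa-miR-25-3p for miR-25, hsa-miR-93-5p for miR-93 and hsa-miR-106b-5p for miR-106b). The mimics were delivered with a lipid reagent and RNA was taken 72 h later. The labels give the final concentration as 25 nM in one place and as 25 mM in another, and the age in one place as day 0. Each mimic has 1 library, so no difference below has a replicate check and no test of the conditions was possible.

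Expression was measured as RPKM, the reads on a gene scaled by its length and by library size, so levels are on a per-length scale and can be compared between genes. Where 4 values stand in a row, they run in the order miR-106b, miR-93, miR-25 and control, and 3 log2 values run in the same order of mimics. Reads on listed genes came to 18797375, 16520194, 16460231 and 15175309. A gene was called higher or lower when its RPKM differed by more than 1.3-fold between libraries and was above 1.0 in both. Fold changes are given as log2 ratios of RPKM with an exact 95% interval from the read numbers, which covers counting error only and not the difference between cultures. Of the autophagy genes, 38 passed the RPKM filter. The exception was Atg9b, a paralogue of the scramblase gene Atg9a, with 1, 0, 1 and 3 reads, for which no fold is given.

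The labelled cell type was checked against marker genes. All 10 cardiomyocyte markers were above 1 RPKM in every library, with summed levels of 19465, 14963, 12612 and 21454 RPKM. Fibroblast markers (8 of 8 found) summed to 637, 743, 317 and 821 RPKM. Smooth muscle markers (4 of 4 found) summed to 686, 583, 2051 and 745 RPKM, highest with miR-25. Endothelial markers (4 of 5 found) summed to between 3.60 and 4.71 RPKM and macrophage markers (5 of 5 found) to between 3.56 and 7.71 RPKM, and no marker was at 0. The miR-25 library lay farthest from the control. It had 0.588 of the control's cardiomyocyte sum, 0.387 of its fibroblast sum and 2.75 times its smooth muscle sum. The cardiomyocyte markers fell unevenly with miR-25. Tnni3 was at 15.9 RPKM, beside 351 RPKM in the control, and Pln at 279 RPKM, beside 374 RPKM. The cardiomyocyte sum was also lower with miR-93, at 0.697 of the control, but its markers did not fall together. Actc1 was at 2733 RPKM with miR-93, beside 7073 RPKM in the control, and Myl2 at 4994 RPKM, beside 6838 RPKM. Tnni3 (495 RPKM, beside 351 RPKM), Tnni1 (499 RPKM, beside 413 RPKM) and Myh6 (1362 RPKM, beside 1307 RPKM) were higher with miR-93. The other cardiomyocyte markers were lower. Col3a1 and Col1a2 had the highest levels of the fibroblast list, and Lum went the other way with miR-25 (10.1 RPKM, beside 5.52 RPKM in the control). The part of these shifts in the autophagy values was not tested. In such bulk samples fewer cells of a type, less RNA per cell and changes of single genes cannot be told apart.

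Autophagy carries cytoplasm and damaged organelles to the lysosome inside a double membrane. The ULK1 kinase complex starts the process, the class III phosphatidylinositol 3-kinase (PI3K) complex marks the growing membrane with PI3P, and a pair of ubiquitin-like conjugation systems attach the Atg8 proteins, the LC3s and GABARAPs, to its lipids. Receptors such as SQSTM1 (p62) then link cargo to the Atg8 proteins, and TFEB and TFE3 drive transcription of autophagy and lysosome genes. In heart muscle the pathway clears worn mitochondria and supplies nutrients around birth.

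miRNAs pair with messenger RNAs mostly through the seed, bases 2 to 8. The rat mature sequences below (RefSeq, GRCr8) are shown because miR-106b and miR-93 carry one seed and miR-25 another, and the autophagy genes are compared along that division. All 3 mature sequences lie on the minus strand of chromosome 12 within Mcm7, at chr12:22157103-22157123 for miR-106b, chr12:22156894-22156916 for miR-93 and chr12:22156652-22156673 for miR-25. Capitals mark the seed. The mimics themselves bear human names.
rno-miR-106b-5p: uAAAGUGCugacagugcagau
rno-miR-93-5p: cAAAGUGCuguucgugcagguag
rno-miR-25-3p: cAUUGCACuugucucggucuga
Aligned from their first base without gaps, miR-106b and miR-93 shared 16 of 21 positions. A perfect seed match in a transcript reads GCACUUU for miR-106b and miR-93 and GUGCAAU for miR-25. Matches in rat 3′UTRs were not analysed here. Ulk1, Sqstm1 and Atg16l1 have been described elsewhere as targets of this miRNA family.

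With miR-106b, Ulk1, Atg13, Atg2a, Atg16l1 and Sqstm1 were lower than with cel-miR-67, while Atg12 and Atg4c were higher. These 5 lower genes are 13.2% of the 38 tested autophagy genes, beside 12.7% of 11296 tested genes called lower, and the 2 higher genes are 5.26%, beside 11.9%. The share of lower calls was thus close to that of all genes. The median log2 fold change of the autophagy genes was -0.15, beside -0.0033 for all tested genes.

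With miR-93, 8 autophagy genes were lower: Atg13, Ambra1, Vmp1, Atg2a, Atg16l1, Atg4a, Atg7 and Gabarapl1. Again Atg12 and Atg4c were higher. The 8 lower genes are 21.1%, beside 15.6% of 11280 tested genes, and the 2 higher genes are 5.26%, beside 15.1%. The median was -0.13 for the autophagy genes and -0.0018 for all tested genes on the log2 scale.

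With miR-25, 11 autophagy genes were higher: Ulk2, Atg14, Pik3c3, Uvrag, Atg2b, Atg10, Atg16l2, Atg4c, Gabarapl1, Calcoco1 and Sqstm1. Atg4b and Tfe3 were lower. The 11 higher genes are 28.9%, beside 19.3% of 11198 tested genes, and the 2 lower genes are 5.26%, beside 22.6%. The median log2 fold change was 0.24, beside -0.0123 for all tested genes. All comparisons with cel-miR-67 share the same control library, so any error in that library enters each of them. Across the mimics, 22 autophagy genes (57.9%) were past the fold at least once, beside 59.6% of the 10984 genes above the RPKM cutoff in every library, so this share was close to that of all genes.

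**Figure D1:**
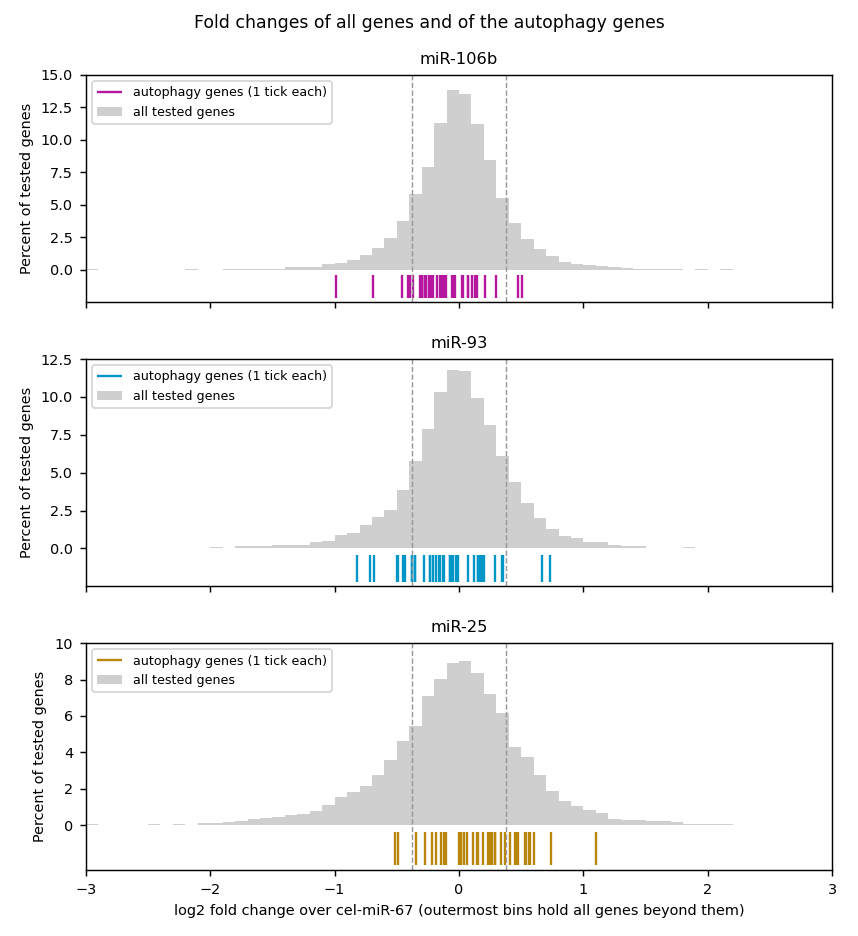
Distribution of log2 fold changes over cel-miR-67 for all tested genes (grey bars, percent of genes per bin of 0.1) and for the 38 tested autophagy genes (coloured ticks under each axis), 1 panel for each mimic. Dashed lines mark 1.3-fold. The ticks lie mostly left of 0 with miR-106b and miR-93 (medians -0.15 and -0.13) and mostly right of 0 with miR-25 (median 0.24), within the spread of all genes.

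Among the initiation genes, Ulk1, the kinase that starts autophagosome formation, was lowest with miR-106b. Its level was 1.15, 1.58, 1.85 and 1.86 RPKM, from 167, 211, 247 and 206 reads. The miR-25 and control values nearly coincided, and miR-93 lay between them and miR-106b. The log2 fold change was -0.69 with miR-106b (interval -0.998 to -0.39), or 61.8% of the control level. With miR-93 it was -0.23 with an interval that included 0 (-0.52 to 0.05). Between the mimics that share a seed, Ulk1 was higher with miR-93 than with miR-106b, by 0.46 on the log2 scale (0.16 to 0.76).

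Atg13, the adaptor subunit that holds the ULK1 complex together, was at 10.3, 8.36, 12.7 and 13.7 RPKM. It was lower with both miR-106b (log2 fold change -0.41, interval -0.60 to -0.22) and miR-93 (-0.71, -0.92 to -0.50). With miR-25 the value was -0.11 (-0.29 to 0.08). Ulk2, the paralogue of Ulk1, had levels of 4.78, 5.39, 8.15 and 5.87 RPKM and was higher with miR-25 alone of the mimics (0.47, 0.34 to 0.61). Rb1cc1, which encodes the scaffold FIP200, ranged from 12.0 to 15.1 RPKM, and Atg101, which stabilises ATG13, from 9.42 to 10.9 RPKM. Neither was past the fold with any mimic.

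**Figure D2:**
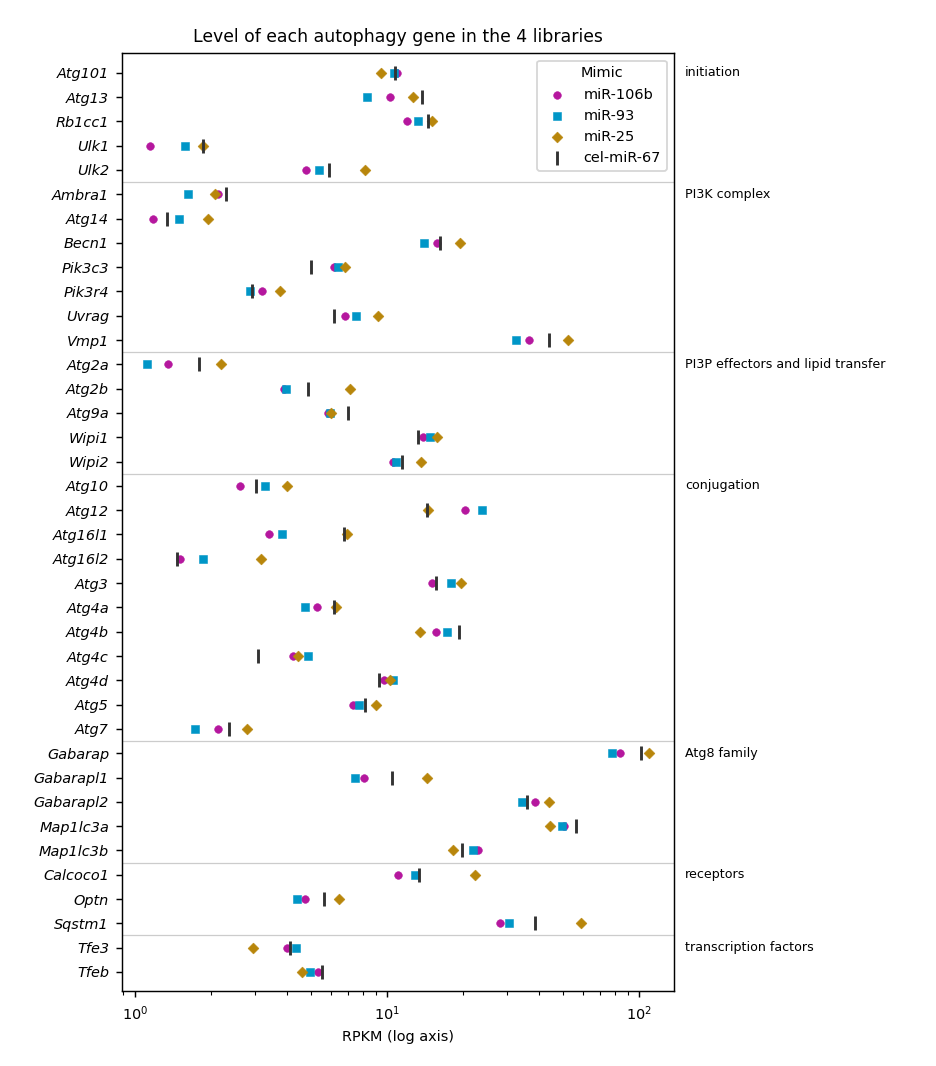
RPKM (log axis) of the 38 tested autophagy genes in each library, grouped by role, with 1 mark for each mimic and a bar for cel-miR-67. Gabarap had the highest levels (77.8 to 109 RPKM), and for Atg16l1 the miR-106b and miR-93 marks (3.39 and 3.83 RPKM) lie apart from miR-25 and cel-miR-67 (6.93 and 6.75 RPKM).

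In the PI3K group, Uvrag, Atg14 and Pik3c3 were past the fold with miR-25, each of them higher. Ambra1 and Vmp1 were past it with miR-93, each of them lower, and no member was past it with miR-106b. Uvrag, a subunit of the form of the complex that acts in late steps, was at 6.82, 7.53, 9.17 and 6.17 RPKM. Its log2 fold change with miR-25 was 0.57 (0.41 to 0.74). Atg14, which directs the complex to the forming autophagosome, was at 1.18, 1.49, 1.95 and 1.34 RPKM, and rose with miR-25 by 0.54 on the log2 scale (0.19 to 0.90). Pik3c3, the catalytic subunit VPS34, was lowest in the control library at 4.99 RPKM, beside 6.14, 6.37 and 6.81 RPKM with the mimics, and was past the fold with miR-25 (0.45, 0.11 to 0.79).

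The lower genes of this group were found with miR-93. Ambra1, which activates the complex and stabilises ULK1, was at 2.13, 1.62, 2.08 and 2.29 RPKM, with the miR-93 value at -0.50 on the log2 scale (-0.78 to -0.22). Vmp1, an endoplasmic reticulum scramblase needed for the membrane to form, was at 36.5, 32.6, 52.1 and 44.0 RPKM, with log2 values of -0.43 for miR-93 (-0.53 to -0.34) and 0.24 for miR-25. For Becn1, the core scaffold Beclin 1, the level was 15.8, 13.9, 19.4 and 16.2 RPKM, with no fold change past 1.3-fold over the control. Pik3r4, the regulatory subunit VPS15, ranged from 2.87 to 3.77 RPKM and was within the fold of the control with each mimic, though centring on the median gene placed it past the fold with miR-25 (log2 fold change 0.37 before centring).

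Of the genes that read PI3P or supply lipid, the paralogues Atg2a and Atg2b, which encode bridge-like lipid transfer proteins, were the ones past the fold. Atg2a was at 1.36, 1.11, 2.19 and 1.79 RPKM. It was lower with miR-106b (log2 fold change -0.40, -0.65 to -0.14) and with miR-93 (-0.68, -0.96 to -0.41). A pseudocount of 0.1 ended the miR-106b call. Ulk1, Ambra1, Atg14, Atg2a, Atg16l2 and Atg7 had levels under 2.0 RPKM in some libraries, and an RPKM cutoff of 2.0 left their calls out. Atg2b was at 3.90, 3.98, 7.14 and 4.84 RPKM, with the miR-25 library highest (0.56, 0.45 to 0.67). Its values with miR-106b and miR-93 were -0.31 and -0.28, within the fold. The PI3P-binding genes Wipi1 (13.2 to 15.8 RPKM) and Wipi2 (10.5 to 13.6 RPKM) and the scramblase gene Atg9a (5.80 to 6.99 RPKM) were not past the fold with any mimic.

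The largest fall of any autophagy gene in these comparisons was that of Atg16l1, which encodes the protein that places the LC3 conjugation machinery on the membrane. Its level was 3.39 RPKM (466 reads) with miR-106b and 3.83 RPKM (483 reads) with miR-93, against 6.93 RPKM (872 reads) with miR-25 and 6.75 RPKM (706 reads) with cel-miR-67. The libraries thus fell into a low and a high pair along the seed. The log2 fold change was -0.99 with miR-106b (-1.16 to -0.82, or 50.3% of control) and -0.82 with miR-93 (-0.99 to -0.65, or 56.8%). With miR-25 it was 0.04 (-0.11 to 0.18), an interval that lies within 1.3-fold on either side. Between miR-93 and miR-106b the difference was 0.17 with an interval that included 0 (-0.01 to 0.36). Its paralogue Atg16l2 was at 1.51, 1.87, 3.15 and 1.47 RPKM. That gene had the largest rise of the autophagy genes, with miR-25 (1.10, 0.69 to 1.52).

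Atg12, the ubiquitin-like protein that is joined to ATG5, was at 20.4, 23.9, 14.5 and 14.3 RPKM. The miR-106b and miR-93 libraries were the high pair here, with log2 fold changes of 0.51 (0.33 to 0.68) and 0.73 (0.56 to 0.91), beside 0.01 (-0.18 to 0.20) with miR-25. The E2-like enzyme gene Atg10, which passes ATG12 on, was at 2.62, 3.29, 4.02 and 3.02 RPKM and was higher with miR-25 (0.41, 0.06 to 0.77), a call that a pseudocount of 1 ended, as it did for Atg14. Atg7, the E1-like enzyme of both conjugation systems, was at 2.14, 1.73, 2.77 and 2.36 RPKM and was lower with miR-93 (-0.45, -0.78 to -0.12). Atg5 ranged from 7.36 to 9.04 RPKM and Atg3, the E2-like enzyme for LC3, from 15.1 to 19.7 RPKM, neither past the fold over the control.

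The ATG4 proteases trim the Atg8 proteins and release them from lipid, and their 4 genes did not move as a group. Atg4c was lowest in the control library at 3.06 RPKM and stood at 4.25, 4.87 and 4.43 RPKM with the others, the only autophagy gene higher with all 3 mimics at these cutoffs (3.38% of the 10984 genes were). Its log2 fold changes were 0.47 (0.10 to 0.85), 0.67 (0.30 to 1.04) and 0.53 (0.16 to 0.91), and a pseudocount of 1 ended the miR-106b call. Atg4b was at 15.7, 17.2, 13.4 and 19.3 RPKM, highest in the control library, and was lower with miR-25 (-0.52, -0.69 to -0.35). Atg4a, at 5.29, 4.74, 6.25 and 6.18 RPKM, was just past the fold with miR-93 (-0.38, -0.70 to -0.06), a call that a pseudocount of 0.1 ended, and Atg4d lay between 9.28 and 10.5 RPKM.

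**Figure D3:**
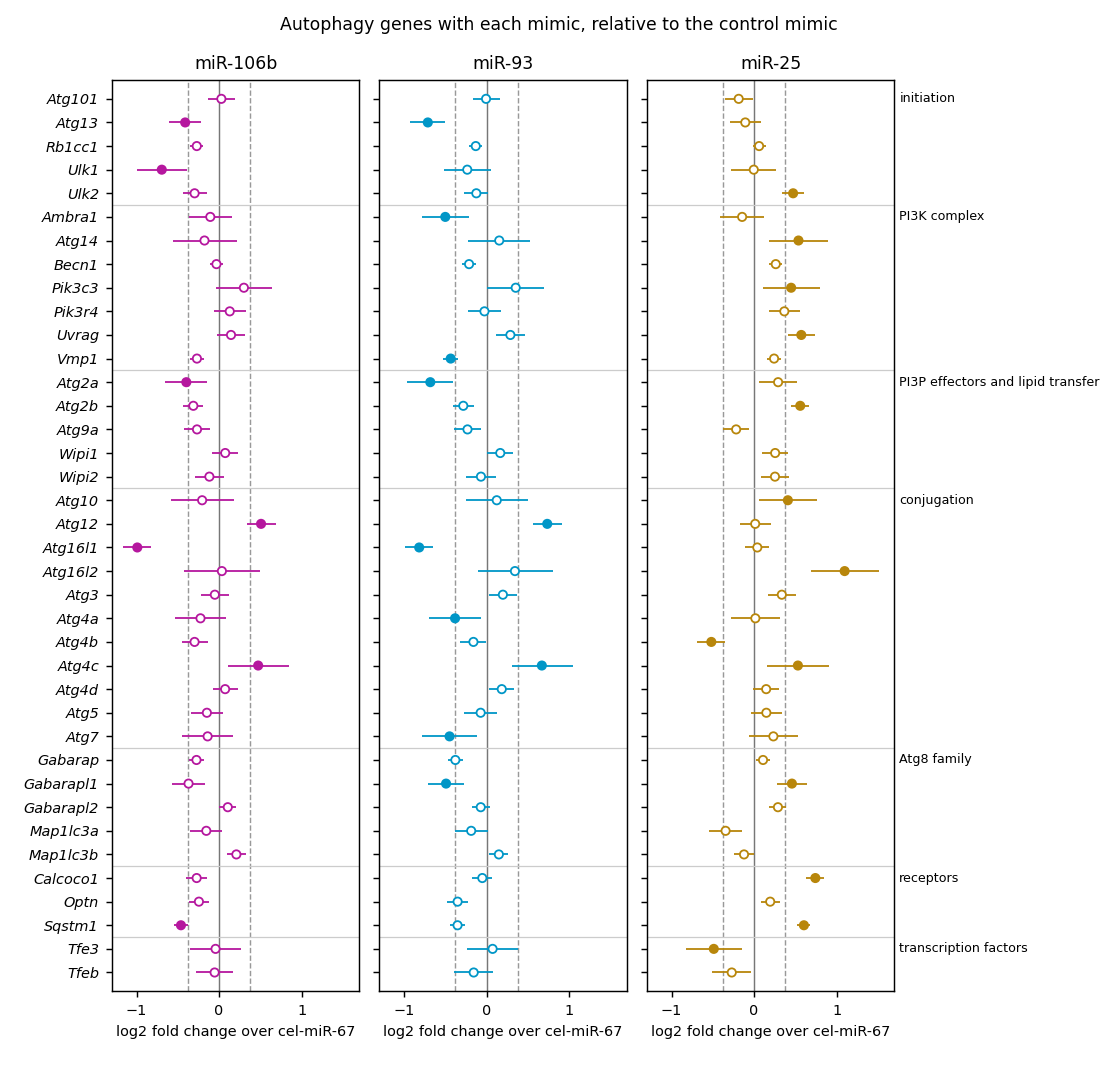
log2 fold change over cel-miR-67 of each tested autophagy gene, 1 panel for each mimic, with the 95% interval from counting error (lines), filled points past 1.3-fold and dashed lines at 1.3-fold. Atg16l1 lies at -0.99 and -0.82 with miR-106b and miR-93 and at 0.04 with miR-25, while Sqstm1 lies at -0.46, -0.35 and 0.60.

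The Atg8 family was led by Gabarap, which ranged from 77.8 to 109 RPKM, and its summed level was 204, 191, 230 and 223 RPKM. Gabarap itself was at 83.6, 77.8, 109 and 101 RPKM, with log2 values of -0.27, -0.38 and 0.11, and the miR-93 value was just inside the fold. Gabarapl1 was the one member past it, at 8.07, 7.43, 14.3 and 10.4 RPKM. This gene was lower with miR-93 (log2 fold change -0.49, -0.70 to -0.28), higher with miR-25 (0.46, 0.28 to 0.64) and just inside the fold with miR-106b (-0.37, -0.57 to -0.17). Gabarapl2 was at 38.7, 34.3, 44.0 and 36.0 RPKM. The LC3 genes differed in order: Map1lc3a was at 50.3, 49.2, 44.1 and 56.0 RPKM, highest in the control library, and Map1lc3b at 22.9, 22.0, 18.2 and 19.8 RPKM, highest with miR-106b. How reads that fit more than one of these similar genes were counted is not given in the sources used here, so their split is uncertain.

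The receptor genes of this set, Sqstm1, Calcoco1 and Optn, were each highest with miR-25. So were 34.5% of the 10984 genes above the RPKM cutoff in every library. The further receptor genes below were not all highest with miR-25. Sqstm1, which encodes the cargo receptor p62, was at 28.1, 30.3, 58.8 and 38.7 RPKM, low with the pair that shares a seed and high with miR-25. It was lower with miR-106b (log2 fold change -0.46, -0.55 to -0.37, or 72.6% of control) and higher with miR-25 (0.60, 0.53 to 0.68, or 152.0%), while the miR-93 value of -0.35 (-0.44 to -0.26) was inside the fold. Calcoco1, a receptor for endoplasmic reticulum and Golgi, was at 11.1, 12.9, 22.4 and 13.4 RPKM and was higher with miR-25 (0.74, 0.63 to 0.85). Optn, which binds ubiquitinated mitochondria, was at 4.74, 4.40, 6.43 and 5.61 RPKM, with log2 values of -0.24, -0.35 and 0.20, none past the fold.

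The transcription factor genes Tfe3 and Tfeb were lowest with miR-25, as were 36.5% of the 10984 genes above the RPKM cutoff in every library. Tfe3 was at 4.002, 4.34, 2.94 and 4.12 RPKM, with the miR-25 value past the fold (log2 fold change -0.49, -0.83 to -0.15). Tfeb was at 5.33, 4.97, 4.59 and 5.54 RPKM and was not past the fold with any mimic. Its log2 values were -0.05, -0.16 and -0.27, the last with an interval from -0.51 to -0.03.

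TFEB and TFE3 bind E-boxes with the letters CACGTG, and the longer form TCACGTGA is the core of the element through which they act on lysosome genes. RefSeq promoters (GRCr8, 250 bases before to 50 after the annotated start) matched 35 of the 39 genes, all but Atg9a, Becn1, Map1lc3a and Rb1cc1. CACGTG reads the same on both strands and lies within TCACGTGA. It was found in 3 of the 35 (8.57%), beside 6.42% of all 33469 promoters. Of the 11465 genes expressed here, 8098 were matched to a promoter, and 9.74% of those promoters held it. TCACGTGA was found in 1 (2.86%), beside 0.777% and 1.91%. The Atg3 promoter held CACGTG at 2 sites, of which the one within TCACGTGA is shown. The windows around a match, with the motif in capitals, are shown to place it relative to the start: Atg14 at chr15:23306792-23306821 (minus strand, 6 bases after the start), Atg3 at chr11:69159279-69159308 (minus strand, 17 bases before it) and Atg5 at chr20:49380804-49380833 (plus strand, 19 bases before it).
Atg14: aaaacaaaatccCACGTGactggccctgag
Atg3: ggagattcgagTCACGTGAggcctaggagg
Atg5: cggggcgctggcCACGTGggcgggtgacgt
Of these genes Atg14 was past the fold with miR-25 (0.54), while Atg3 and Atg5 had log2 values of 0.34 and 0.15. The promoters of Sqstm1, Calcoco1 and Gabarapl1 had neither motif in these 300 bases.

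Direct comparisons between mimics do not use the control library. Between miR-93 and miR-106b, Ulk1 alone was higher with miR-93 and Ambra1 alone lower (log2 fold change -0.39, -0.67 to -0.12, a call that a pseudocount of 0.1 ended). That is 2.63% of the 38 autophagy genes in each direction, beside 7.3% higher and 8.21% lower of 11391 tested genes, and the other 36 were within 1.3-fold. miR-25 and miR-106b differed more, with 16 autophagy genes higher with miR-25 (42.1%, beside 22.1% of 11183 tested genes) and Atg12 and Tfe3 lower (5.26%, beside 23.0%). Sqstm1 (1.07, 0.99 to 1.15), Atg16l2 (1.06, 0.70 to 1.44), Atg16l1 (1.03, 0.87 to 1.20) and Calcoco1 (1.01, 0.91 to 1.12) had the largest log2 differences. Against miR-93, 17 were higher with miR-25 (44.7%, beside 22.1% of 11198 tested genes) and again Atg12 and Tfe3 were lower (5.26%, beside 23.0%). Here the largest differences were those of Atg2a (0.97, 0.72 to 1.23), Sqstm1 (0.96, 0.88 to 1.03) and Gabarapl1 (0.95, 0.76 to 1.14). The miR-25 library enters both of these comparisons.

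**Figure D4:**
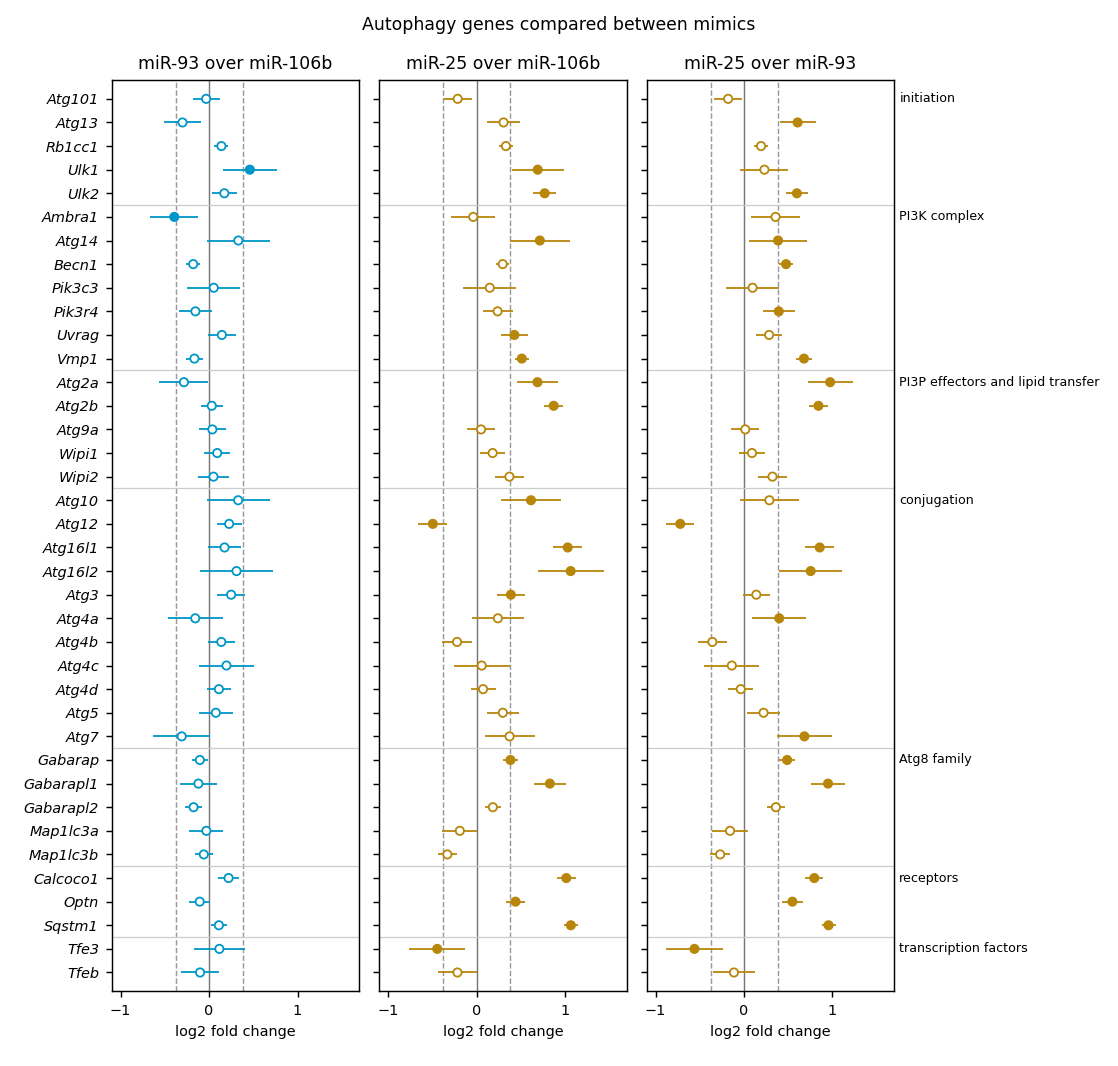
log2 fold change of each tested autophagy gene between mimics, with the 95% interval from counting error (lines), filled points past 1.3-fold and dashed lines at 1.3-fold. Filled points are Ulk1 and Ambra1 in the left panel, 18 genes in the middle panel and 19 in the right panel, most of them to the right of 0, higher with miR-25.

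Further genes of the pathway were taken from 4 lists: upstream regulators, membrane nucleation and lipid supply, fusion with the lysosome, and other receptors with mitophagy. Of 56 genes found under 1 row, 55 passed the RPKM filter in each comparison with cel-miR-67, all but Foxo1. Past the fold were 8 higher and 6 lower with miR-106b, 11 higher and 9 lower with miR-93, and 13 higher and 11 lower with miR-25. Those shares of the list are 14.5% and 10.9% (beside 11.9% and 12.7% of all tested genes), 20.0% and 16.4% (beside 15.1% and 15.6%), and 23.6% and 20.0% (beside 19.3% and 22.6%), so the list lay near the background. Their median log2 fold changes were -0.07, 0.02 and 0.12.

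Among the upstream regulators, Rragd, a Rag GTPase that recruits mTORC1 to lysosomes, was at 2.42, 2.79, 9.31 and 4.71 RPKM. Its log2 values were -0.96, -0.75 and 0.98, lower with the mimics that share a seed and higher with miR-25. The kinase gene Mtor, which restrains autophagy, was lowest in the control library (6.74 RPKM) and higher with each mimic (0.60, 0.40 and 0.65). Flcn, a GTPase-activating protein for Rag GTPases, was likewise higher with each (0.62, 0.73 and 0.57), with intervals above 0. Deptor, an mTOR inhibitor, had log2 values of 0.43 (-0.03 to 0.89), 0.54 (0.08 to 1.005) and 0.67 (0.22 to 1.13), and the miR-106b interval included 0. For AMPK, which promotes autophagy when energy is low, the catalytic subunit gene Prkaa2 was highest in the control library at 52.2 RPKM and lower with each mimic (-0.49, -0.66 and -0.59). The scaffold subunit gene Prkab1 was at 12.8, 20.6, 8.59 and 14.9 RPKM, higher with miR-93 (0.47) and lower with miR-25 (-0.80).

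For nucleation and lipid supply, Tmem41b, a scramblase that works with VMP1, was at 12.2, 12.8, 20.3 and 22.5 RPKM. It was lower with miR-106b and miR-93 (log2 fold changes -0.88 and -0.82), with a value of -0.15 for miR-25. Tp53inp1, which encodes an LC3-binding stress protein, was at 28.9, 31.0, 74.3 and 23.5 RPKM, the largest rise of the listed genes with miR-25 (1.66). Its relative Tp53inp2 had log2 values of -0.65, -0.29 and 0.40, and Bcl2l1, the Beclin 1 binding protein BCL-XL, 0.16, -0.02 and 0.69.

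In the fusion list, Ykt6, a SNARE of the autophagosome, was at 40.7, 34.3, 22.2 and 25.2 RPKM, higher with miR-106b and miR-93 (log2 fold changes 0.69 and 0.44). Its partner Snap29 was at 12.3, 11.9, 7.30 and 11.3 RPKM and was lower with miR-25 (-0.63). The lysosomal SNARE gene Vamp8 was lower with miR-93 and miR-25 (-0.59 and -0.64). Plekhm1, an adaptor between LC3 and the tethering complex, was lower with miR-106b and miR-25 (-0.88 and -0.46), while Rab7a, the GTPase of late endosomes, was higher with each mimic (0.43, 0.49 and 0.64).

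Among receptors and mitophagy genes, Bnip3l, a mitochondrial receptor, was lowest in the control library at 9.10 RPKM and higher with each mimic (log2 fold changes 0.49, 0.40 and 0.96). Pink1, the kinase that marks damaged mitochondria, was at 22.5, 31.8, 11.9 and 22.2 RPKM, higher with miR-93 (0.52) and lower with miR-25 (-0.89). Tollip, a ubiquitin-binding receptor, was lower with miR-93 (-0.72) and higher with miR-25 (0.67), and the glycogen receptor gene Stbd1 was lower with miR-93 (-0.86).

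**Figure D5:**
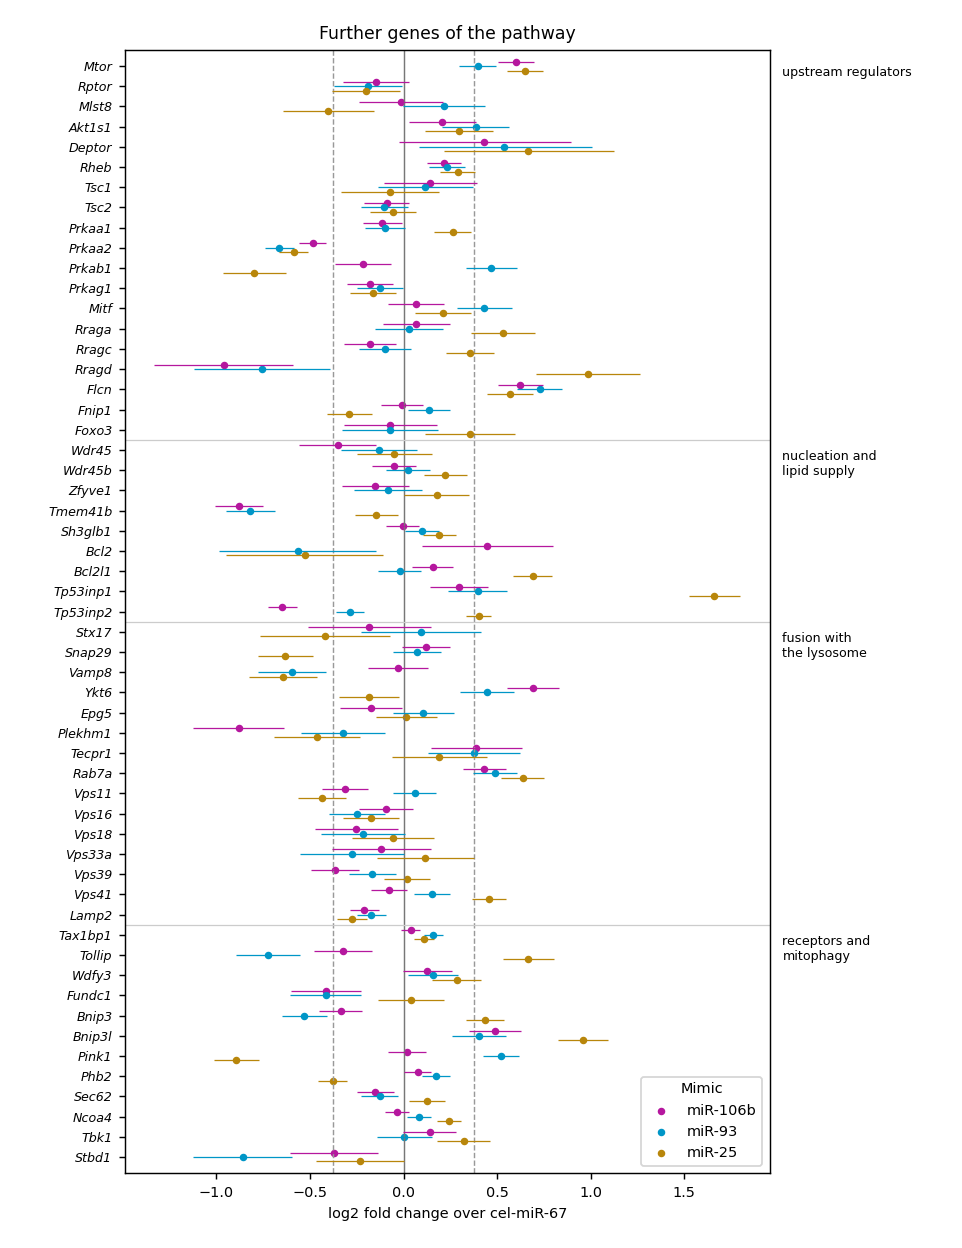
log2 fold change over cel-miR-67 of the further pathway genes that passed the RPKM filter, by list, with 1 point for each mimic and its 95% interval from counting error. Dashed lines mark 1.3-fold. Tp53inp1 with miR-25 lies farthest to the right (1.66) and Rragd with miR-106b farthest to the left (-0.96).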

How the data were processed

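Reads of 4 libraries, 1 for each mimic, were adaptor-trimmed and aligned by the authors to the rat genome Rnor_6.0 (STAR 2.7, per the submitters' processing notes). The deposited values are RPKM, which the authors computed with edgeR from gene counts. The counting program and any use of strand are not given in the sources used here, so reads of overlapping antisense genes cannot be told apart. The table for the series and the 4 files for single samples held identical values. Of the 15731 genes, 176 symbols were listed more than once. Such symbols stayed out of the further lists.

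Ratios of RPKM without a pseudocount were computed across all genes (Python 3.11.15, pandas 2.3.3, numpy 2.4.6). Whole reads were recovered from the RPKM steps for all 15731 genes, where the matching gene length came out whole within 2e-05 bases. For 655 of them the reads were multiplied by the smallest common factor that gave a whole length. The tolerance was multiplied by the same factor, and larger multiples were not excluded. The library sizes behind the values were from 22674410 to 29749467 reads. Intervals are exact Clopper-Pearson intervals at 95% (scipy 1.17.1). The recovery and the intervals were tried on simulated reads that held counting error only, so the difference between cultures was not examined. Plots used matplotlib 3.10.9. Values in all libraries are given for genes past 1.3-fold with at least 1 mimic, for Ulk1, Sqstm1, Atg16l1, the Atg8 family, Tfeb and Tfe3, and further pathway genes are named when past 1.5-fold. The members, lists and cutoffs were chosen with earlier results of these data known. Alternatives were other RPKM cutoffs, pseudocounts, scalings and folds. Seed matches in 3′UTRs and protein identities were not analysed here, since no such sequences were used.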

Additional observations from a re-analysis of the deposited data

How the results depend on the processing

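With 1 library for each mimic, neither replicate spread nor leaving out a library could be examined, and no paired analysis was possible because each group holds a single library. The median log2 fold change kept its sign in 42 of 42 recomputations. No fold change over the control past 1.3-fold reversed among the autophagy genes given with values in every library. These settings could not reverse one. RPKM and fold cutoffs leave a ratio as it is, a pseudocount keeps its sign, and the scalings shifted log2 values by at most 0.0123. The median could change sign only where an RPKM cutoff changed the set of genes. Fold changes between mimics and of further pathway genes were recomputed as counts only. Counts below are higher and then lower autophagy genes. At a fold of 1.5 miR-106b had 0 and 2, miR-93 2 and 3, and miR-25 3 and 0. At a fold of 2 miR-106b had 0 and 0, miR-93 0 and 0, and miR-25 1 and 0. When the whole interval had to pass 1.3-fold, miR-106b had 0 and 2 (Atg16l1 and Ulk1), miR-93 1 and 3 (Atg12, then Atg13, Atg16l1 and Atg2a), and miR-25 5 and 0 (Atg16l2, Atg2b, Calcoco1, Sqstm1 and Uvrag). An RPKM cutoff of 2.0 left 3 lower with miR-106b, 5 lower with miR-93 and 9 higher with miR-25. A pseudocount of 1 left 1 higher (without Atg4c) and 4 lower (without Atg2a) with miR-106b. It left 5 lower with miR-93 (without Ambra1, Atg4a and Atg7) and ended the miR-25 calls of Atg10 and Atg14. It also moved Atg16l1 with miR-106b to -0.82 and Atg2a with miR-93 to -0.40. Centring on the median and TMM scaling shifted log2 values by at most 0.0123. With TMM, Gabarap also counted as lower with miR-93, and with centring Pik3r4 as higher with miR-25.

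Only the larger changes of a count are given here, so a count left out may also have fallen. Between miR-93 and miR-106b the counts were 0 and 0 with an RPKM cutoff of 2.0, a pseudocount of 1, a fold of 1.5 or 2, or the whole interval. They were 0 lower with a pseudocount of 0.1 or with the cutoff of 1.0 in either library and a pseudocount of 0.1. Between miR-25 and miR-106b, a pseudocount of 1 left 1 lower, and a fold of 2 left 4 higher and 0 lower. A fold of 1.5 left 0 lower and ended the higher calls of Atg3, Gabarap, Optn, Uvrag and Vmp1. The whole interval left 0 lower and ended higher calls including those of Atg10, Atg3, Gabarap, Optn and Uvrag. Between miR-25 and miR-93, a fold of 1.5 left 11 higher and 1 lower, and a fold of 2 left 0 and 0. The whole interval left 1 lower and ended the higher calls of Atg14, Atg4a, Atg7 and Pik3r4. For the further pathway genes, a pseudocount of 1 left 5 higher and 5 lower with miR-106b. With miR-93 it left 6 higher and 8 lower, and with miR-25 7 lower. A fold of 1.5 left 3 higher and 4 lower with miR-106b, 1 higher and 6 lower with miR-93, and 8 higher and 5 lower with miR-25. At a fold of 2 miR-106b and miR-93 had 0 in either direction, and miR-25 1 higher and 0 lower. The whole interval left 3 higher and 5 lower with miR-106b, 2 higher and 7 lower with miR-93, and 8 higher and 5 lower with miR-25. Fewer counts at stricter folds or with the whole interval follow from the cutoff itself. An RPKM cutoff of 2.0 leaves out genes below it, and a pseudocount moves each ratio toward 0, most at low levels. Depth limited the genes of low level most, such as Atg14, Atg16l2 and Ulk1, whose intervals were among the wider ones.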

Other observations

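Fam134b, an endoplasmic reticulum autophagy receptor, was listed under 2 identifiers and so was left out of the list counts. One stood at 58.9, 43.5, 19.0 and 54.0 RPKM with miR-106b, miR-93, miR-25 and cel-miR-67, the other at 129, 90.8, 33.2 and 111 RPKM. Both were lowest with miR-25, with log2 fold changes of -1.51 and -1.75 over the control. The gene was singled out after its values were seen.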
